A study of Mus musculus with 4 samples.

Results

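Neutrophils were selected on measured values from single-cell RNA sequencing of liver cells of 4 mice, as droplet barcodes in which S100a8 and S100a9 together made up at least 5% of all UMIs (unique molecular identifiers, each counting a captured mRNA molecule). A barcode also had to hold 500 to 6000 detected genes, at most 10% of UMIs from mitochondrial genes and under 0.2% from 9 endothelial cell (EC) genes (Pecam1, Kdr, Stab2, Clec4g, Ptprb, Cdh5, Egfl7, Oit3 and Dnase1l3). Of 30362 barcodes that passed the limits on genes and mitochondrial UMIs, 648 (2.13%) were neutrophils by this rule. Since S100a8 and S100a9 chose the cells, their levels, and all values set against other cells, are descriptions.

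Each library came from 1 mouse of 1 genotype. WT mice were genetically unmodified. YAPKO mice carried Alb-Cre with Yap fl/fl, TAZKO mice Alb-Cre with Taz fl/fl, and DKO mice Alb-Cre with both floxed genes; YAP is the product of Yap1 and TAZ that of Wwtr1. Alb-Cre deletes in hepatocytes (HCs) and biliary epithelial cells (BECs), so neutrophils are not among the targeted cells. Recombination in the neutrophils was not measured. The comparison asks how neutrophils differ in livers whose HCs and BECs lack YAP, TAZ or both. The labels name no treatment, and the age and sex of these mice are not given in the sources used here. HCs and non-parenchymal cells (NPCs) were isolated separately, the NPCs passed red-cell lysis and an iodixanol density gradient, and both were mixed in a fixed ratio before capture with a 10x 3′ kit. With 1 library per genotype there is no replicate check: a ratio compares libraries, not genotypes, and all intervals are exact 95% intervals that cover counting error only.

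Neutrophils are short-lived phagocytes made in the bone marrow, where they fill their granules in a fixed order: primary granules first, then secondary (specific) granules, then gelatinase granules. The genes of granule proteins are read mostly in the marrow precursors and are shut off before release, whereas receptors, cytokines and survival genes are read in mature cells. In the liver, neutrophils pass through the sinusoids, and they enter the tissue after injury and in cholestasis, drawn by chemokines that bind Cxcr2.

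The targeted genes gave next to no signal in neutrophils. Yap1 had 4 UMIs in WT neutrophils and 0 in those of the other libraries, and Wwtr1 had 2, 5, 0 and 0 UMIs in WT, YAPKO, TAZKO and DKO, the order in which values of the 4 libraries are given from here on. Both counts lie near the limit that 0 UMIs allows, 3 UMIs, or 4.64, 3.51, 95.6 and 15.1 CPM (UMIs per 1000000 UMIs of the cells). In HC-rich barcodes, in which HC markers held at least 20% of UMIs, Yap1 was at 21.3, 4.44, 47.1 and 5.07 CPM and Wwtr1 at 5.08, 11.5, 0.993 and 1.78 CPM, lower in the libraries labelled as deleted for the gene than in WT. These 3′ tags may lie outside the deleted exons, so the values do not test the deletion itself. Over a list of 19 Hippo pathway genes, 16 had a UMI in neutrophils, and their sum was 432, 368, 606 and 433 CPM. The most abundant was Stk4, the upstream kinase MST1, at 138, 131, 95.6 and 101 CPM. Vgll4, a repressor that competes with YAP for TEAD factors, was at 35.6, 49.2, 63.7 and 90.6 CPM. No member of the list passed a ratio of 2 in YAPKO to WT, and 2 of 5 members with at least 20 UMIs passed it upwards in DKO to WT, where 7.94% of all such genes did; of the 2 members with at least 100 UMIs, 0 passed it.

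Neutrophils were far fewer in the TAZKO library and fewer in the DKO library than in the other libraries. WT held 254 neutrophils among 7155 kept barcodes (3.55%, 3.13 to 4.01), YAPKO 285 among 6275 (4.54%, 4.04 to 5.09), TAZKO 16 among 8638 (0.185%, 0.106 to 0.301) and DKO 93 among 8294 (1.12%, 0.906 to 1.37). Reading the limits of 500 and 6000 as UMIs gave 2.45, 8.34, 0.141 and 1.96%, and selection on at least 2 of Retnlg, Csf3r and Cxcr2 gave 4.18, 5.85, 0.533 and 2.03%. Keeping barcodes from 200 genes on gave 2.01% in WT, and an S100 limit of 10% gave 0.0579% in TAZKO. The order was the same over barcodes with under 10% of UMIs from HC markers, with shares of 5.03, 5.55, 0.286 and 1.74%. It was also the same per 100 B cells, which passed the same NPC isolation, with 61.8, 66.4, 2.93 and 30.7 neutrophils. Per 100 Kupffer cells (KCs) there were 39.2, 37.5, 1.59 and 10.6 neutrophils, and per 100 monocytes 299, 130, 25 and 60.8, where WT and not YAPKO held the highest value. How many neutrophils were lost in isolation, and how many were in blood within the vessels, was not measured. The neutrophils held 645982, 853987, 31375 and 198792 UMIs, with medians of 2326, 2303, 1875 and 1949 UMIs and 858, 854, 852 and 759 genes per cell. The TAZKO values therefore rest on few UMIs, in which a single UMI stands for many CPM. Median mitochondrial shares were 0.45, 0.485, 0.467 and 0.255%. No neutrophil barcode was shared between libraries, against 96 barcodes shared by pairs of libraries among all kept ones.

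The label held against markers that the rule did not use. Csf3r, the receptor for G-CSF, was at 1669, 1240, 2773 and 1791 CPM, and Cxcr2, the receptor for the chemokines of the Cxcl1 to Cxcl3 group, at 1062, 1091, 1625 and 1368 CPM. Retnlg, a secreted resistin-like protein of mouse neutrophils, was at 5814, 7336, 3793 and 9980 CPM. Each of these 3 genes was present at over 1000 CPM in every library. Thinned to 1000 UMIs per cell, 80.7, 74.4, 93.8 and 81.7% of neutrophils held a Csf3r UMI, 69.3, 67, 81.2 and 71% a Cxcr2 UMI and 73.2, 66.7, 75 and 75.3% a Retnlg UMI. Il1b, the cytokine interleukin-1 beta, was at 6144, 5406, 3920 and 6373 CPM and had a UMI in 93.3, 86, 87.5 and 96.8% of thinned cells. All 19 members of a longer list of neutrophil markers had UMIs, led by the methionine sulfoxide reductase Msrb1 at 4438, 4173, 4494 and 4718 CPM. Ly6g, the surface protein by which mouse neutrophils are commonly sorted, was low, at 97.5, 133, 0 and 75.5 CPM, with a limit of 95.6 CPM in TAZKO. Most of the YAPKO Ly6g UMIs lay in 13 cells rich in secondary granule RNA, described further on, so the YAPKO value rests largely on them.

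**Figure D1:**
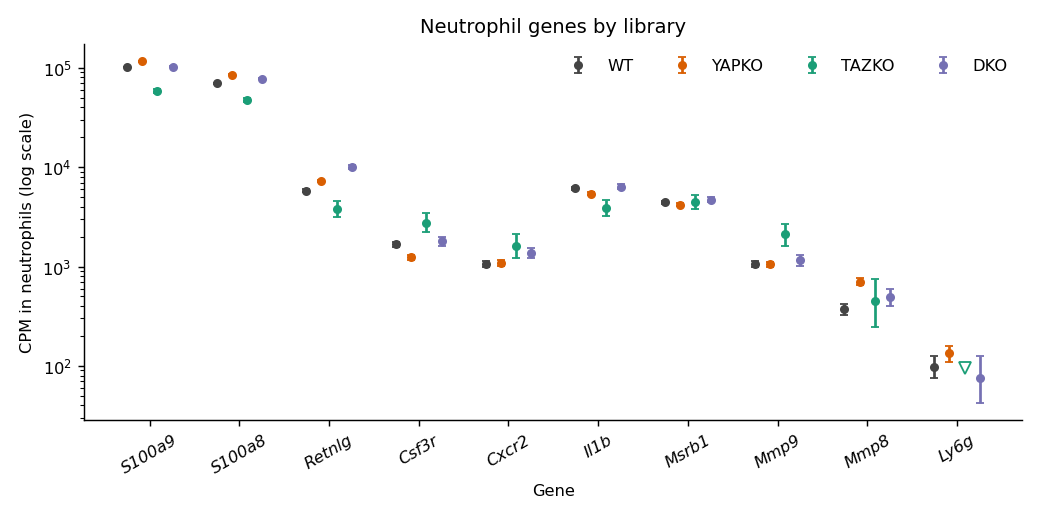
Level of 10 neutrophil markers (CPM, log axis) in the summed neutrophils of each library, points with exact Poisson 95% intervals that cover counting error only; open triangles mark the limit of 3 UMIs where no UMI was seen. S100a8 and S100a9, which chose the cells, lie highest, and Ly6g, at 0 UMIs in TAZKO, lowest.

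The 5% limit cut through a continuous range. Just inside it, at 5 to 6% of UMIs, lay 43 cells, of which 100% held a Csf3r UMI, 79.1% a Cxcr2 UMI, 58.1% a Retnlg UMI and 100% an Il1b UMI. Just outside it, at 4 to 5%, lay 34 cells with 94.1, 88.2, 35.3 and 100% for the same genes. The barcodes next to the limit thus carried the same receptors, with fewer Retnlg-positive cells outside.

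The RNA of these cells was dominated by few genes. The 10 most abundant genes took 33.5, 33.2, 27.2 and 31.5% of UMIs, headed by S100a9 (101919, 116307, 57880 and 102600 CPM) and S100a8 (69827, 85341, 47299 and 77780 CPM), which form the antimicrobial and proinflammatory calprotectin. The S100a8 and S100a9 share per cell had medians of 15.9, 15.3, 8.9 and 16.4%, lowest in TAZKO. Apart from the ribosomal-RNA-like CT010467.1, which came next, there followed the nuclear RNA Malat1 (32275, 28636, 32223 and 31857 CPM), the actin-binding Tmsb4x (23380, 25026, 30502 and 29906 CPM) and Actb (9010, 12323, 12207 and 12863 CPM). The ferritin heavy chain Fth1, which stores iron, was at 6508, 10702, 7968 and 9653 CPM, the signalling adaptor Tyrobp at 6853, 7331, 8096 and 10021 CPM, and the granule proteoglycan Srgn at 4997, 5970, 4207 and 7083 CPM. Ribosomal-RNA-like tags of CT010467.1 and Mir6236 held 7.43, 3.46, 6.86 and 2.49% of UMIs. These tags were library-wide, since CT010467.1 was at 45594, 23048, 43883 and 20283 CPM in B cells.

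Set against all other kept barcodes, the genes with the highest lowest-of-4-libraries ratio were Retnlg (at least 752 times in each library), S100a9 (391) and S100a8 (365). Ceacam10 followed at 295, the granule glycoprotein Olfm4 at 214, the Mas-related receptor Mrgpra2b at 198 and the cysteine protease inhibitors Stfa2 and Cstdc4 at 171 and 163. Mmp8, the neutrophil collagenase, stood at 119 and the retroviral-like aspartic protease Asprv1 at 118. The stefin genes (Stfa1, Stfa2, Stfa2l1) are near-identical copies, so the division of UMIs among them is uncertain.

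Granule genes were present by stage. Primary granule genes were near 0: of 6 members, Mpo (myeloperoxidase) had 1, 0, 0 and 0 UMIs, and the most abundant, the protease inhibitor Serpinb1a, had 3, 82, 0 and 2. Of the gelatinase granule and late markers, Mmp9 (gelatinase B) was at 1067, 1052, 2104 and 1157 CPM and Mmp8 at 370.0, 700.2, 446 and 493 CPM. The median log2 ratio of this list was 0.27 in YAPKO to WT and 0.12 in DKO to WT, with 0 of 9 members past a ratio of 2 in either. Beside it, all genes with at least 20 UMIs had medians of 0.00 and 0.16. Many of the YAPKO Mmp8 UMIs lay in 10 cells rich in secondary granule RNA, with 19 to 47 UMIs each. Secondary granule genes differed between libraries and are described further on.

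Receptors and adhesion molecules of mature neutrophils were read in every library. The summed chemoattractant receptors were at 3081, 3813, 4239 and 4346 CPM, and after Cxcr2 their most abundant members were the chemokine receptor Ccr1 (659.5, 879, 988 and 870 CPM), the retention receptor Cxcr4 (432, 466, 478 and 518 CPM) and the C5a receptor C5ar1 (311, 420, 255 and 428 CPM). Ccrl2, an atypical receptor that presents chemerin, was at 57.3, 111, 0 and 211 CPM and passed a ratio of 2 in DKO to WT (log2 ratio 1.88), but not with 8 WT cells of low other-type RNA as the base (-0.95, a setting described with Cxcl2). Of the adhesion genes, 1 of 9 passed a ratio of 2 in YAPKO to WT, against 5.77% of all genes: Icam1, at 12.4, 44.5, 0 and 45.3 CPM (log2 ratio 1.85, and 0.40 with the 8 WT cells as the base). The most abundant were Cd44 at 741, 827, 765 and 790 CPM and the surface glycoprotein Selplg at 762, 669, 733 and 921 CPM. Fc and complement receptors were led by the shared gamma chain Fcer1g (2406, 3139, 1594 and 3230 CPM). Their median log2 ratios were -0.01 in YAPKO to WT and -0.06 in DKO to WT. Of the NADPH oxidase, which makes superoxide, Cyba was at 1564, 1915, 2008 and 1796 CPM. The cytosolic subunit Ncf1 was at 192, 439, 159 and 387 CPM, higher in YAPKO (log2 ratio 1.19) and DKO (1.01) than in WT. That difference was not seen with the same 8 WT cells as the base (-0.17 and -0.39).

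Cells of 1 library varied along the S100 share. That share also chose the cells, so these values are descriptions. Cells were divided at the median share of their library (127 and 127 cells in WT, 142 and 143 in YAPKO, 46 and 47 in DKO), and CPM were taken over UMIs other than S100a8 and S100a9. Retnlg went from 3261 to 11360 CPM in WT, from 2508 to 15215 in YAPKO and from 5437 to 20038 in DKO, or log2 ratios of 1.80, 2.60 and 1.88. Mmp8 also lay higher in cells with the larger share (1.60, 2.68 and 2.19), as did the siderophore-binding lipocalin Lcn2 (1.59, 2.41 and 0.91). Of the 13 YAPKO cells rich in secondary granule RNA described below, 12 lay above the median; without all 13 the YAPKO values were 2.31 for Retnlg, 1.77 for Mmp8 and 1.64 for Lcn2. Chemokine genes were lower in the cells with the larger share, and so was Cd74, a gene of antigen-presenting cells. Cd74 had log2 ratios of -4.03, -0.82 and -3.15, and Apoe of -0.81, 1.05 and -1.79, higher in YAPKO and there -0.51 without the 13 cells named above. Cxcl2 had log2 ratios of -2.17, -0.72 and -1.34, Ccl4 of -2.78, -0.95 and -2.93 and Ccl3 of -1.94, -1.18 and -1.72. Without the 13 cells the YAPKO values were smaller, at -0.457 for Cxcl2, -0.669 for Ccl4 and -0.895 for Ccl3. Cxcr4 was lower in the cells with more S100 RNA too (-0.86, -0.77 and -0.86), while Il1b moved less in these libraries (-0.12, -0.36 and -0.23). Leaving out the 13 cells gave YAPKO values of -0.580 for Cxcr4 and -0.078 for Il1b. In TAZKO, with 8 and 8 cells, the Il1b value was -0.91. Across cells of a library, the Spearman correlation of the Retnlg share with the S100 share was 0.53 in WT (254 cells), 0.63 in YAPKO (285) and 0.65 in DKO (93). Such cells share their library and their depth, and the S100 share itself went with the UMIs per cell (0.36, 0.51 and 0.36). For Cxcl2 it was -0.07, -0.20 and -0.23, close to 0 in WT, and in the 16 TAZKO cells that of Retnlg was 0.17 and that of Il1b -0.78.

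The YAPKO library held a group of cells with the RNA of secondary granule proteins that no other library had among its neutrophils. All of them held over 6000 UMIs, so reading the limits of 500 and 6000 as UMIs removes the whole group; Camp then has a log2 ratio of -1.42 in YAPKO to WT. In 13 YAPKO neutrophils (4.56% of 285, 2.45 to 7.67), Camp, Ngp, Ltf and Chil3 together took 1.9 to 14.2% of UMIs, while the highest neutrophil below 1% had 0.447%. The count was 0 of 254 in WT, 0 of 16 in TAZKO and 0 of 93 in DKO, with intervals up to 1.44, 20.6 and 3.89%. Summed over all neutrophils, Camp, the precursor of the cathelicidin CRAMP, had 5, 6456, 0 and 0 UMIs, or a log2 ratio of 9.93 (8.71 to 11.56) in YAPKO to WT. Ngp, a cathelin-related granule protein, had 26, 4892, 0 and 1 UMIs (7.15, 6.60 to 7.77). Lactotransferrin (Ltf), the iron-binding protein of specific granules, had 3, 1015, 0 and 0 UMIs (8, 6.45 to 10.28), and the chitinase-like Chil3 had 8, 714, 0 and 0 (6.08, 5.09 to 7.29). With the 13 cells left out, the YAPKO to WT log2 ratios were -1.38 for Camp, 0.56 for Ngp, 0.35 for Ltf and -3.06 for Chil3. Chil3 is not particular to neutrophils, as monocytes held 1069, 816, 179 and 242 CPM. The UMIs lie in so few cells that the difference between YAPKO and DKO is best read from the cells, 13 of 285 against 0 of 93, whose intervals overlap.

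These 13 cells were large and held little RNA of several genes of mature neutrophils, though not of all. They had a median of 9862 UMIs (7067 to 35810) and 1662 genes, and together 21% of the UMIs of the YAPKO neutrophils. Their S100a8 and S100a9 share had a median of 43.2% (14.8 to 52). Lcn2 was at 12424 CPM inside the group and 986 CPM in the remaining YAPKO neutrophils, the oxidase subunit Cybb at 1214 and 40 CPM, the activation marker Cd177 at 512 and 22.2 CPM and the granulocyte transcription factor Cebpe, which drives secondary granule genes, at 306 and 19.3 CPM. Several genes of mature cells were low inside the group. Retnlg, Mmp8 and Ly6g were not low there. Of the 13 cells, 10 held 11 to 483 Retnlg UMIs and 19 to 47 Mmp8 UMIs. Il1b, held by 86% of thinned YAPKO neutrophils, had no UMI in 12 of the 13 cells. Il1b was at 44.6 CPM inside and 6834 CPM in the rest, Csf3r at 55.7 and 1555 CPM, Cxcr2 at 206 and 1327 CPM and Srgn at 406 and 7451 CPM. Ccl3 and Ccl4 had no UMI inside, a limit of 16.7 CPM. The group was itself mixed: 10 cells held Mmp8 UMIs and at least 10 Retnlg UMIs, and 3 cells of 20518, 23636 and 35810 UMIs had no Mmp8 UMI and more Chil3 (218, 188 and 186 UMIs). The division genes Mki67 (15, 2 and 18 UMIs) and Top2a (25, 0 and 32 UMIs) were read in them. Mpo and Elane had no UMI in any of the 13 cells, and HC markers took at most 0.679% of UMIs in any and KC markers at most 0.668%. The group did hold RNA of antigen-presenting cells: 78.4% of the Cd74 UMIs of YAPKO neutrophils, in 4 cells, 88% of those of H2-Aa, in 3 cells, and 50.4% of those of Apoe. Leaving the 13 cells out turned the YAPKO to WT log2 ratio of the summed dendritic cell markers from 1.47 to -0.74. Doublets were not called, so the part of joined droplets in cells of such size was not tested. A further 2 kept YAPKO barcodes with this RNA lay over the EC limit, and 2 kept WT barcodes with it had less than 5% of S100a8 and S100a9.

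**Figure D2:**
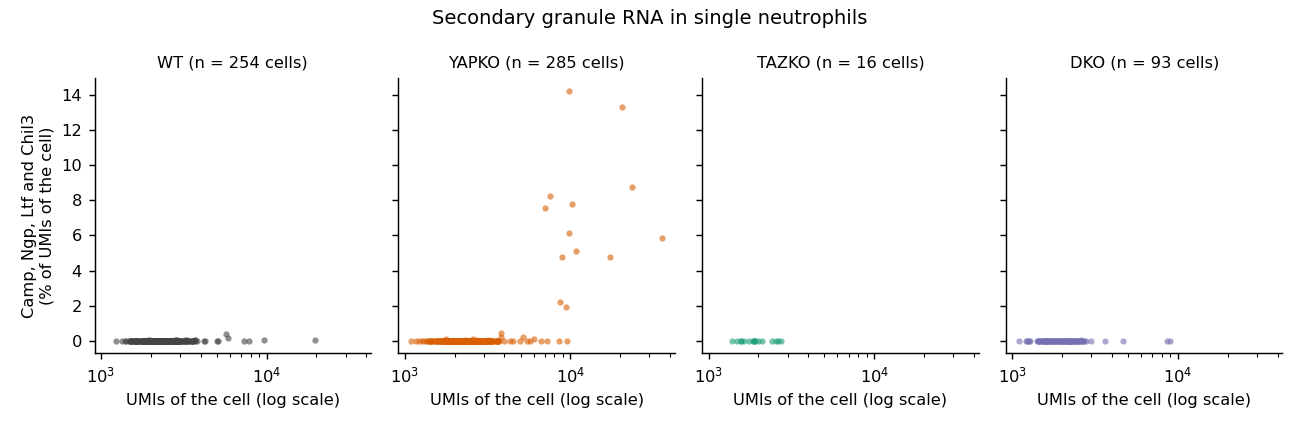
Each point is a neutrophil, with its UMIs on the x axis (log axis) and the percent of its UMIs from Camp, Ngp, Ltf and Chil3 on the y axis, in a panel per library. The 13 cells at or above 1% are all in YAPKO and hold at least 7067 UMIs, while no cell of WT, TAZKO or DKO passes 0.368%.

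The 3 leading genes of this group lie on the same chromosome, and their promoters are shown because they moved together. On the GRCm38.p6 build (RefSeq), the windows of 250 bases before to 50 bases after the start of the gene are chr9:109849407-109849706 for Camp (minus strand), chr9:110419558-110419857 for Ngp (plus strand) and chr9:111019042-111019341 for Ltf (plus strand), all within 1170 kb. A C/EBP-type motif, spelled TTNNGCAA and searched on both strands, is set in capitals; it has 2 matches in Ngp, 1 in Ltf and 0 in Camp. It was found in 3547 of 32851 promoters (10.8%) and in 3 of the 10 matched members of the secondary granule list (Ltf, Ngp and Lcn2). A match is a description of letters, not of binding.
Camp: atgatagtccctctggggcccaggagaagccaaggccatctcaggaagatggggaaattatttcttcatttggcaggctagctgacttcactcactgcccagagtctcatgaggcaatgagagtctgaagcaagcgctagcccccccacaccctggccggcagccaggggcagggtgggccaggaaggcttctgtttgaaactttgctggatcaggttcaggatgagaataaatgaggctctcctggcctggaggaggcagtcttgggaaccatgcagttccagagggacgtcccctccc
Ngp: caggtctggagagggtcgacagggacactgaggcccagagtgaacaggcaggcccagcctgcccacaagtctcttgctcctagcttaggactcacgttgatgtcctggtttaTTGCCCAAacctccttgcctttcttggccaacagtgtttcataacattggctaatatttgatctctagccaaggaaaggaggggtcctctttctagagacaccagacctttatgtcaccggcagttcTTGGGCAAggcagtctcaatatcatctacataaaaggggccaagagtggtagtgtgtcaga
Ltf: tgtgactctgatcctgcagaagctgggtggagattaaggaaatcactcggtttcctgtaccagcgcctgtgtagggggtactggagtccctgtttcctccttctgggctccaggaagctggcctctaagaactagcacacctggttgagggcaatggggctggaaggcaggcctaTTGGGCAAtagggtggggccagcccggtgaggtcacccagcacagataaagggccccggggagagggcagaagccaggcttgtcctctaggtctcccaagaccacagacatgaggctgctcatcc

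The list of 11 secondary granule genes was higher in YAPKO by its median. Its sum was 6691, 23317, 3442 and 5564 CPM, and its median log2 ratio in YAPKO to WT was 2.25 against 0.00 over all genes. Of its 11 members with at least 20 UMIs, 7 were past a ratio of 2 and higher in YAPKO, 0 lower. Among all genes with at least 20 UMIs in the 2 libraries, 5.77% were past that ratio upwards and 5.59% downwards. Without the 13 cells, left out after the data were seen, the median was -0.20, and with the limits read as UMIs 0.07. In DKO to WT the median was 0.26 against 0.16 over all genes, with 1 member of 8 higher and 1 lower, where 7.94% of such genes were higher and 7.09% lower; none of the 3 members with at least 100 UMIs was past the ratio. Members read by mature cells too stayed close: the peptidoglycan-binding Pglyrp1 was at 1478, 1570, 1211 and 1907 CPM and haptoglobin (Hp) at 3108, 2413, 1594 and 2394 CPM. Lcn2, at 1882, 3391, 510 and 986 CPM, was higher in YAPKO than in WT over all neutrophils (log2 ratio 0.85) but lower once the 13 cells were left out (-0.93), near its value in DKO (-0.93). Division genes had a median of 2.60 in YAPKO to WT (6 of 9 members with at least 20 UMIs higher, against 5.77% of all genes) that was -0.13 without the 13 cells. This median rests on members with few UMIs: 1 member held at least 100 UMIs, and it did not pass the ratio. The most abundant, the DNA-binding protein Hmgb2, had a log2 ratio of 0.03 and the sum of the list 0.32. Serpinb1a, a protease inhibitor placed in the primary granule list, was the only member of that list with enough UMIs (log2 ratio 3.97 with 1 UMI added). The YAPKO to WT median of the list is therefore the value of this gene alone. Of the 82 YAPKO UMIs of Serpinb1a, 79 were in the 13 cells.

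YAPKO neutrophils differed from WT in 133 of 1719 genes (7.74%) past a ratio of 2, with 60 higher (3.49%) and 73 lower (4.25%). The median log2 ratio of all these genes was 0.01. The balance differed by setting. It was 57 higher and 49 lower without the 13 granule cells and 87 and 62 with selection on Retnlg, Csf3r and Cxcr2. With the 8 WT cells of low other-type RNA as the base it was 97 and 47. Totals without CT010467.1, Mir6236 and HC markers gave 52 and 84. Of the 73 lower genes 43, and of the 60 higher genes 2, were HC genes, defined as genes at least 3 times higher in HC-rich barcodes than in neutrophils, a factor set after the values were seen. Beside Camp, Ltf, Ngp and Chil3, the 10 largest rises included the chemokine Cxcl3, the histone gene H1f4 and Ly6a2. The others were the granule gene Olfm4, Stfa1 and the survival gene Bcl2a1b. H1f4 was at 18.6, 152, 0 and 0 CPM, but B cells moved likewise (46.3, 152, 56.6 and 65.3 CPM), and 85.4% of its YAPKO UMIs were in the 13 granule cells. Ly6a2 (17, 172, 0 and 35.2 CPM) had 97.3% of its YAPKO UMIs there. Olfm4 (12.4, 115, 63.7 and 65.4 CPM) had 71.4% of its YAPKO UMIs in 3 cells and Stfa1 (13.9, 146, 0 and 201 CPM) 90.4% in 3 cells, none of them granule cells for Stfa1. These rises thus rested on few cells.

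**Figure D3:**
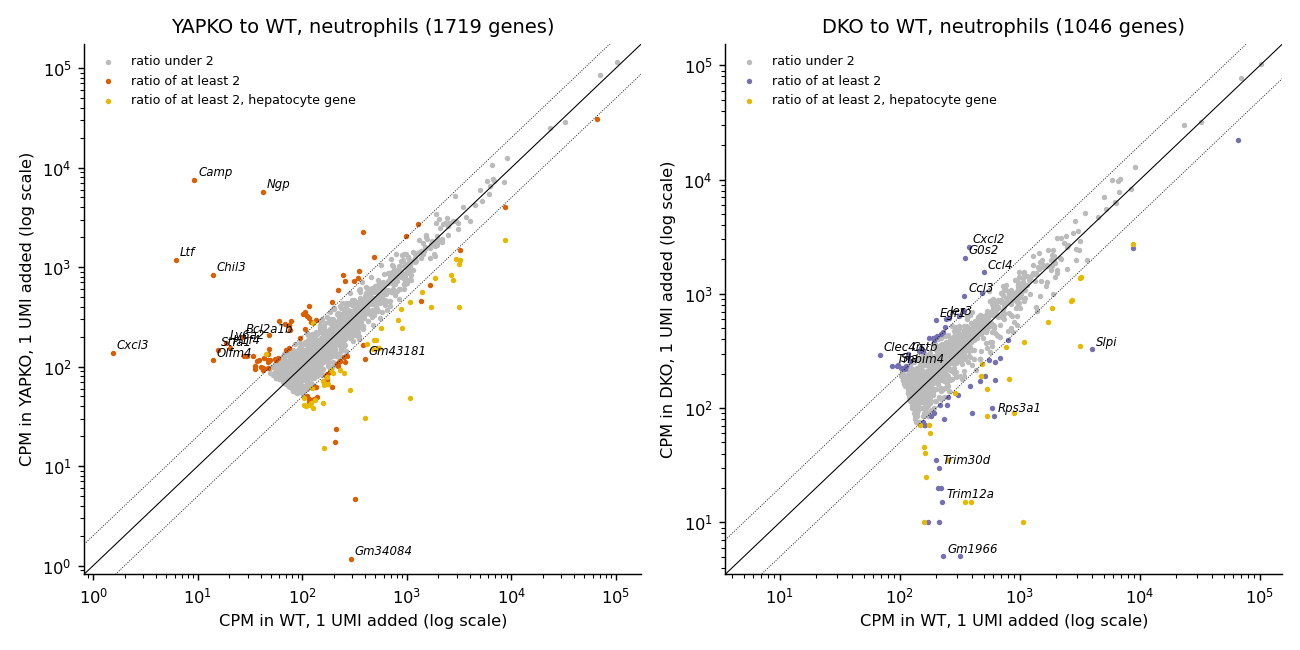
Level of each gene in summed neutrophils (CPM with 1 UMI added, log axes), WT on the x axis against YAPKO (left) and DKO (right), with dotted lines at a ratio of 2; each point is a gene with at least 100 UMIs in both libraries together, and HC genes are yellow. Camp, Ngp and Ltf stand far above the line in YAPKO, Cxcl2 above it in both panels, and Slpi below it in DKO.

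Inflammatory cytokine and chemokine genes had medians above all genes in both libraries that lack YAP in HCs and BECs, with members on either side of WT in YAPKO. The sum of the 17 genes was 9305, 10899, 7299 and 14920 CPM. The median log2 ratio was 0.82 in YAPKO to WT (4 of 11 members past 2, all higher) and 1.07 in DKO to WT (6 of 11, all higher). All genes with at least 20 UMIs had medians of 0.00 and 0.16, with 5.77 and 7.94% past a ratio of 2 upwards. Members with at least 100 UMIs were past it in 3 of 9 and 4 of 7 cases. The YAPKO median was 0.38 with a limit of 2.5% for the S100 share and 0.46 with 10%. Both comparisons share the WT library, so a low WT value enters both. Dendritic cell markers were also higher in these libraries (log2 ratios of the sums 1.47 and 1.00) and monocyte markers in YAPKO (0.81). The dendritic cell sums fell below WT in YAPKO without the 13 granule cells and in DKO with a limit of 10% for the S100 share. The part of cells with such RNA in the list was not tested. Il1b, the most abundant member, had log2 ratios of -0.19 and 0.05.

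Cxcl2, a ligand of Cxcr2 that draws further neutrophils, was at 375, 2227, 0 and 2591 CPM. That is 5.95-fold higher in YAPKO than in WT (log2 ratio 2.57, 2.38 to 2.77) and 6.92-fold higher in DKO (2.79, 2.57 to 3.02). WT and TAZKO were low and YAPKO and DKO high, with no overlap of the counting intervals of these levels. Those intervals treat UMIs as independent and do not cover the spread between cells. The top 10th of cells held 96.3% of the Cxcl2 UMIs in WT, 66.1% in YAPKO and 81.9% in DKO. By the share of thinned cells with a Cxcl2 UMI, the intervals of TAZKO (0 to 20.6%) and DKO (20.1 to 39.4%) overlap. In the same libraries Cxcl2 was at 15.9, 12.5, 17.1 and 14.4 CPM in KCs and 36, 93.7, 2.22 and 4.12 CPM in monocytes, where YAPKO was also higher than WT and DKO was not. Thinned to 1000 UMIs, 9.45, 36.8, 0 and 29% of neutrophils held a Cxcl2 UMI, and 13.4, 42.5, 0 and 39.8% did unthinned. In thinned B cells, which should lack it, the shares were 0, 0, 0 and 0.331%, at median depths of 2902, 2862, 2804 and 2124 UMIs against 2326, 2303, 1875 and 1949 in neutrophils. Cells in which Cxcl2 alone took at least 1% of UMIs numbered 1, 30, 0 and 9. The 13 granule cells took little part, with Cxcl2 at 61.3 CPM inside and 2804 CPM in the remaining YAPKO neutrophils. The rise was smaller when every cell with at least 1% of UMIs from the HC, KC, B, or T and NK cell markers was left out, with log2 ratios of 0.46 in YAPKO and 0.65 in DKO to WT. That setting leaves 8 WT, 224 YAPKO, 0 TAZKO and 79 DKO neutrophils, so the WT base is thin. It drops YAPKO and DKO cells as well, so more than the base changes. Wherever ratios with the 8 WT cells are given, they have no interval. For genes of low level they can rest on very few WT UMIs. With the limit for HC markers at 10%, chosen after the data were seen and leaving 244, 281, 16 and 92 cells, the ratios were 2.49 and 2.74.

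Its neighbour Cxcl3 was at 0, 137, 0 and 196 CPM, with a WT limit of 4.64 CPM. It was read in few cells: 4.21% (2.19 to 7.24) of thinned YAPKO and 3.23% (0.67 to 9.14) of thinned DKO neutrophils, with 97.4% of the DKO UMIs in 3 cells. In WT it was read in 0 of 254 (0 to 1.44%), so by cells the WT and DKO intervals overlap. The promoters of both genes are shown because the genes rose together and lie within 118 kb, at chr5:90903649-90903948 for Cxcl2 and chr5:90785851-90786150 for Cxcl3 (both plus strand, GRCm38.p6, RefSeq). Each holds a single match to the NF-kB-type motif GGAATTTCC, in capitals and searched on both strands, starting at base -96 in Cxcl2 and -72 in Cxcl3. The motif was found in 104 of 32851 promoters (0.317%) and in 4 of 14 matched members of the inflammatory list (Cxcl2, Cxcl3, Cxcl1 and Cxcl10).
Cxcl2: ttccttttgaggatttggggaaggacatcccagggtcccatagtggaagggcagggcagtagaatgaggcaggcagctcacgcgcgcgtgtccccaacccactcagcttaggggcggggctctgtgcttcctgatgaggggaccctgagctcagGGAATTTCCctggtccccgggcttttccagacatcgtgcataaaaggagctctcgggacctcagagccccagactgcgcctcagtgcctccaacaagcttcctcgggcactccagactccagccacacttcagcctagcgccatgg
Cxcl3: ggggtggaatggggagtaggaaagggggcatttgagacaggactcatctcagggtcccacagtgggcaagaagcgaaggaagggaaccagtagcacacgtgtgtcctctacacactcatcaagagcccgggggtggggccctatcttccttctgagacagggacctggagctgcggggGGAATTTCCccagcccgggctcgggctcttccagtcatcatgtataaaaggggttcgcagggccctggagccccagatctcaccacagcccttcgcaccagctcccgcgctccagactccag

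Ccl3 and Ccl4, chemokines that draw monocytes and T cells, were higher in DKO alone. Ccl3 was at 344, 374, 95.6 and 951 CPM (log2 ratio 1.47 in DKO to WT, 1.18 to 1.75, and 0.12 in YAPKO to WT), and Ccl4 at 497, 450, 31.9 and 1544 CPM (1.64, 1.41 to 1.87, and -0.14). In the DKO library 61.9% of Ccl4 UMIs came from 3 cells, and the thinned share of cells with a Ccl4 UMI was 11.8, 17.5, 6.25 and 19.4%, whose WT, YAPKO and DKO intervals overlap. For Ccl3 the thinned shares were 13, 17.5, 6.25 and 26.9%. B cells held 3.62, 14.8, 1.68 and 48 CPM of Ccl4 and KCs 81.1, 53.3, 41 and 129 CPM, also highest in DKO. In B cells these UMIs lay in few cells: 5 of 411, 2 of 429, 3 of 547 and 3 of 303. The part of such RNA of other cell types in the neutrophil values was not tested. With the 8 WT cells of low other-type RNA as the base, the DKO to WT ratio was -0.08 for Ccl3 and 4.22 for Ccl4. Of the other members, Il1rn, the interleukin-1 receptor antagonist, was at 198, 385, 223 and 317 CPM (log2 ratios 0.96 and 0.68), Ccl6 at 1430, 1357, 2709 and 2289 CPM and oncostatin M (Osm) at 79, 51.5, 127 and 141 CPM.

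**Figure D4:**
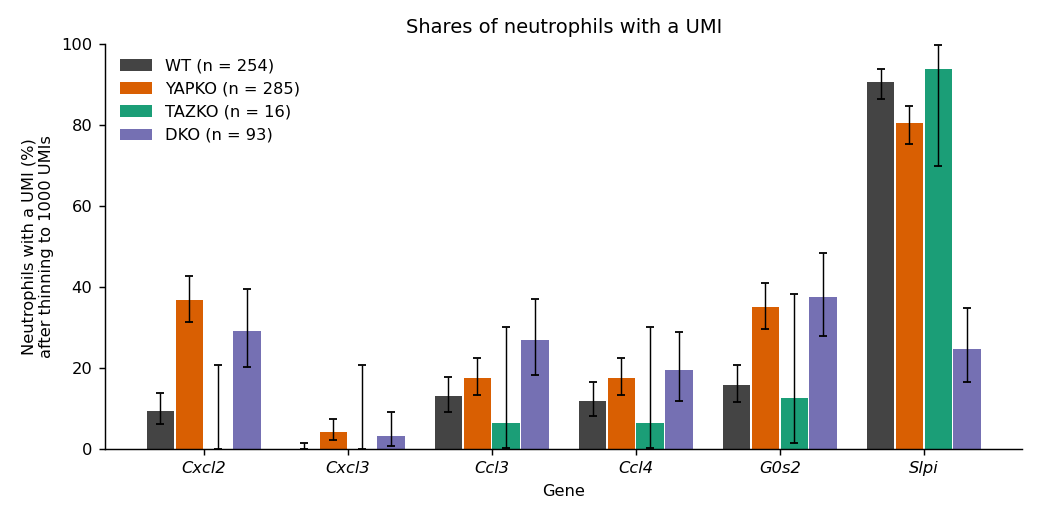
Percent of neutrophils with at least 1 UMI of 6 genes after thinning each cell to 1000 UMIs, bars by library with exact Clopper-Pearson 95% intervals (254, 285, 16 and 93 cells). Cxcl2 is at 9.45% in WT and 36.8 and 29% in YAPKO and DKO, and Slpi at 90.6% in WT and 24.7% in DKO.

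Genes that hold back interleukin-1 and NF-kB signals lay above all genes in their median. Of this list, Nfkbia, the inhibitor that keeps NF-kB in the cytoplasm, was at 698, 1213, 223 and 880 CPM (log2 ratios 0.80 in YAPKO and 0.33 in DKO to WT). Tnfaip3, the deubiquitinase A20, was at 17, 59.7, 0 and 25.2 CPM (1.81 in YAPKO). Socs3, a brake on cytokine receptors, went down in DKO, from 303 to 126 CPM (-1.27), with 277 CPM in YAPKO, but was higher in DKO with the 8 WT cells as the base (2.17). The list had medians of 0.57 (2 of 12 higher, against 5.77% of all genes) and 0.38 (0 of 10 higher, 2 lower, against 7.94 and 7.09%), and no member with at least 100 UMIs was higher in either.

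Survival genes had medians of 0.46 (5 of 11 members higher, against 5.77% of all genes) and 0.63 (4 of 9 higher, against 7.94%). With the 8 WT cells as the base the medians were -0.37 and -0.02, and in DKO 0.14 with a limit of 10% for the S100 share. Mcl1, on which neutrophil survival rests, was even at 2180, 1801, 2327 and 2012 CPM. The kinase Pim1 was at 308, 728, 382 and 629 CPM (log2 ratios 1.24 and 1.03). Bcl2a1b, of the A1 group of antiapoptotic genes, was at 24.8, 199, 0 and 136 CPM (3.01 and 2.46), but its near-identical copies make its counts uncertain, and KCs moved likewise (89.6, 219, 65.3 and 287 CPM). With the 8 WT cells as the base its ratios were 1.10 and 0.32.

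Genes of pattern recognition had medians of 0.19 and 0.23, with 1 of 11 members past a ratio of 2 in YAPKO, against 5.77% of all genes, and 0 of 11 in DKO. That member, Cd14, the coreceptor for lipopolysaccharide, was at 988, 2028, 223 and 1539 CPM (log2 ratios 1.04 and 0.64), and Tlr2, the receptor for bacterial lipopeptides, at 83.6, 167, 63.7 and 146 CPM (1.00 and 0.80). The fungal receptors Clec7a (839, 602, 1179 and 810 CPM) and Clec4e (508, 636, 382 and 553 CPM) did not pass a ratio of 2. Clec4n (dectin-2), which is not in this list, did, at 66.6, 265, 0 and 287 CPM (1.99 and 2.11, and 1.14 and 1.16 with a limit of 2.5% for the S100 share). Among transcription factors, Cebpb, the factor of emergency granulopoiesis, was at 1280, 2730, 669 and 2153 CPM (1.09 and 0.75). Cebpd (940, 602, 510 and 528 CPM), Klf2 (847, 477, 701 and 493 CPM) and Klf6 (642, 369, 542 and 433 CPM) were lower in both, by log2 ratios of -0.64 and -0.83 for Cebpd and -0.83 and -0.78 for Klf2, which became -0.01 and -0.08 and 0.37 and 0.41 with the 8 WT cells as the base. The myeloid factor Spi1 (793, 886, 765 and 860 CPM) did not differ by a ratio of 2.

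DKO neutrophils differed from WT in 93 of 1046 genes (8.89%), of which 32 (3.06%) were higher and 61 (5.83%) lower; 28 of the lower and 0 of the higher were HC genes. The median of all these genes was 0.115 on the log2 scale, so a DKO to WT ratio is read against this shift. Scaled by it, 17 genes were higher and 71 lower (19.3% of the genes past the ratio were higher, against 34.4% unscaled), and with the ribosomal-RNA-like tags and HC markers left out of the totals 18 were higher and 70 lower (20.5%). The balance turned with selection on Retnlg, Csf3r and Cxcr2 (109 higher and 57 lower, 65.7%) and with the 8 WT cells as the base (34 and 6, 85%). Scaled log2 ratios were 2.67 for Cxcl2, 2.44 for G0s2, 1.52 for Ccl4, 1.35 for Ccl3 and -3.74 for Slpi.

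Slpi, the secretory leukocyte protease inhibitor, which blocks neutrophil elastase, fell furthest among genes with over 1000 CPM in WT that are not HC genes. It was at 3977, 2932, 4207 and 322 CPM, so DKO neutrophils held 12.4-fold less than WT (log2 ratio -3.63, -4.01 to -3.27), while YAPKO was close to WT (-0.44) and TAZKO at the WT level. The share of thinned cells with a Slpi UMI was 90.6, 80.4, 93.8 and 24.7% (96.9, 90.5, 93.8 and 43% unthinned), against at most 0.699% in thinned B cells. The loss was spread over cells, since no DKO neutrophil held more than 5 Slpi UMIs, whereas 110 of 254 WT neutrophils held at least 10. Monocytes had 846, 439, 104 and 134 CPM, low in DKO and also in TAZKO, where neutrophils held 4207 CPM. Over all alternative settings the DKO to WT ratio lay between -4.24 and -3.07.

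G0s2, an inhibitor of adipose triglyceride lipase, rose in both libraries and in many cells. It was at 348, 919, 255 and 2052 CPM, with log2 ratios of 1.40 (1.18 to 1.62) in YAPKO and 2.56 (2.32 to 2.80) in DKO to WT, and 15.7, 35.1, 12.5 and 37.6% of thinned cells held a UMI (1.22, 0.233, 1.47 and 0.331% of B cells). With the 8 WT cells as the base the ratios were 0.60 and 1.69. Of the immediate early genes, Egr1 was at 200, 279, 159 and 584 CPM (0.48 and 1.55, and 3.13 and 4.29 with the 8 WT cells) and Ier3 at 241, 838, 159 and 599 CPM (1.80 and 1.31, and 1.37 and 0.79 with them). Atf3 went down, at 190, 60.9, 127 and 85.5 CPM (-1.64 and -1.15, but -1 and -0.33 with the 8 WT cells). The whole stress and immediate early list had medians of -0.31 (1 of 16 higher, 3 lower) and -0.21 (3 of 16 higher, 3 lower), beside all-gene shares of 5.77 and 7.94% higher and 5.59 and 7.09% lower, with Fos at 1070, 933, 1944 and 1539 CPM and Dusp1 at 1690, 1714, 2327 and 1268 CPM. Further rises in DKO to WT were the protease inhibitor Cstb (115, 306, 319 and 292 CPM), the adaptor Sla (94.4, 194, 159 and 231 CPM) and Tmbim4 (85.1, 104, 223 and 226 CPM), a Golgi protein, the first and last of which were not higher with the 8 WT cells as the base (-0.70 and -0.01). Ptgs2 (cyclooxygenase-2) was at 217, 214, 287 and 443 CPM (-0.02 and 1.03, the latter -0.11 with the 8 WT cells), and Hif1a, the oxygen-sensitive factor, at 71.2, 90.2, 255 and 156 CPM (0.34 and 1.13, the latter 0.53 when cells were selected on Retnlg, Csf3r and Cxcr2).

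Interferon-stimulated genes had medians near those of all genes with the main setting, and lower ones with the 8 WT cells as the base (-0.71 and -0.98). Their sum was 12044, 9759, 9211 and 11872 CPM, with medians of -0.18 in YAPKO to WT (1 of 24 higher, 3 lower) and 0.05 in DKO to WT (1 of 23 higher, 1 lower), beside 5.77 and 7.94% of all genes higher and 5.59 and 7.09% lower. Single members went in opposite directions. Ifitm1, which blocks viral entry, was at 3189, 1487, 1817 and 2903 CPM (-1.10 and -0.14), and Slfn4, of the Schlafen family, at 613, 418, 382 and 246 CPM (-0.55 and -1.31). Oasl2, of the oligoadenylate synthetase family, was at 38.7, 17.6, 31.9 and 312 CPM (3.01 in DKO to WT), read in 29 of 93 DKO neutrophils. Bst2 (tetherin) was at 193, 85.5, 95.6 and 337 CPM, but 92.5% of its DKO UMIs were in 3 cells, and its DKO to YAPKO ratio of 1.98 turned to -2.04 with a limit of 10% for the S100 share.

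The remaining lists are given beside medians of 0.00 and 0.16 over all genes. Their median log2 ratios in YAPKO and DKO to WT were 0.41 and 0.44 for chemoattractant receptors, 0.13 and 0.11 for adhesion molecules, 0.46 and 0.20 for NADPH oxidase subunits and -0.02 and 0.29 for granulocyte transcription factors. For genes of lipid mediators they were -0.04 and -0.41, for hypoxia and glycolysis 0.38 and 0.30, for genes of tissue-adapted neutrophils 0.43 and 0.15, and for the S100 family 0.25 and -0.02. The 5 defining markers had 0.19 and 0.16 and the 19 other neutrophil markers 0.39 and 0.18. Among lipid genes Alox5ap, which passes arachidonic acid to 5-lipoxygenase, was at 1864, 1616, 1689 and 2188 CPM. Of the glycolytic genes, Gapdh was at 949, 988, 414 and 1046 CPM and the glucose transporter Slc2a3 at 258, 143, 287 and 216 CPM. Sex-linked genes had medians of 0.04 and -0.03, with Xist at 0 UMIs and Ddx3y at 29, 43, 1 and 8 UMIs.

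**Figure D5:**
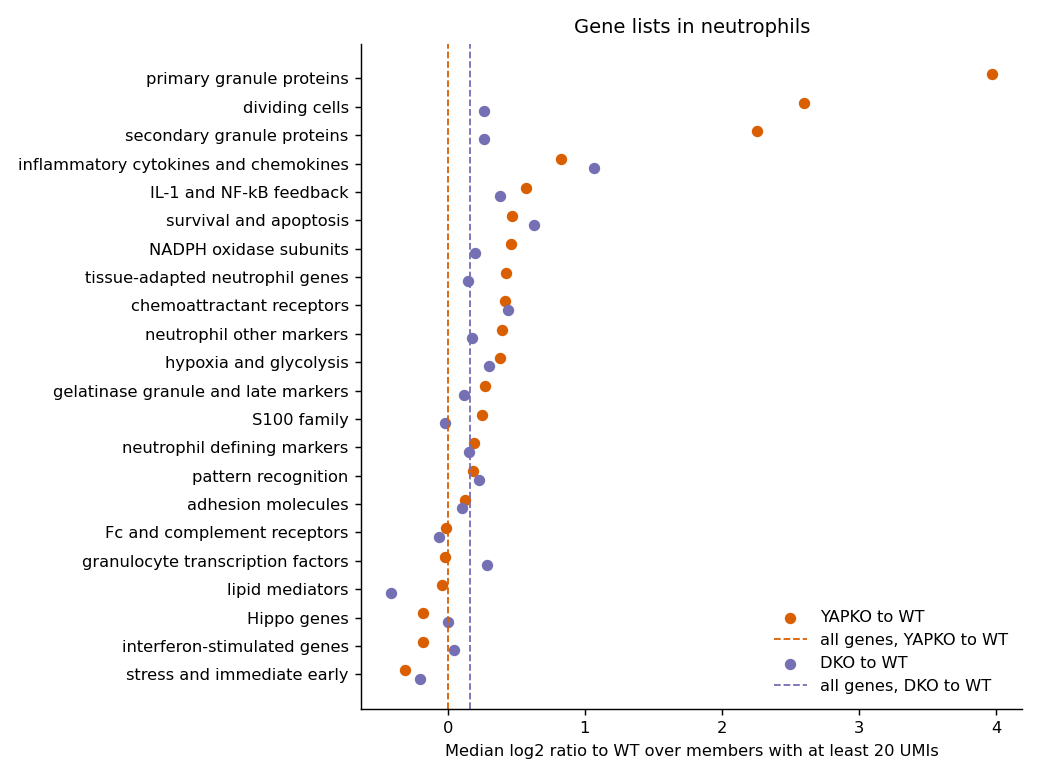
Median log2 ratio (log2 CPM ratio to WT, 1 UMI added) of the members of each gene list with at least 20 UMIs, for YAPKO and DKO, with dashed lines at the medians of all such genes (0.00 and 0.16). Secondary granule proteins stand apart in YAPKO (2.25), as do division genes (2.60, from members with few UMIs), and inflammatory cytokines and chemokines lie above the lines in both (0.82 and 1.07).

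Several of the largest falls were seen in B cells too. Rps3a1, a ribosomal protein gene with many copies, was at 608, 676, 31.9 and 80.5 CPM in neutrophils and 5022, 5215, 309 and 426 CPM in B cells. Gm1966, at 229, 112, 159 and 0 CPM, was at 152, 171, 113 and 10.7 CPM in B cells, and Trim12a, at 224, 162, 95.6 and 10.1 CPM, at 165, 191, 93 and 2.66 CPM. Gm34084 was at 290, 0, 606 and 367 CPM in neutrophils and had no UMI in any cell type of the YAPKO library. Rps3a1, Gm1966 and Trim12a in DKO to WT were thus lower in B cells too, whereas Gm1966 in YAPKO to WT was lower in neutrophils but not in B cells. The Trim12, Trim30, Rps3a1 and Mup genes have near-identical copies, and their single values are uncertain.

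RNA of HCs was present in the neutrophils and differed between libraries. All 16 HC markers had UMIs, with Mup20 the most abundant and sums of 31809, 9710, 22024 and 11756 CPM; the median share per cell was 2.58, 0.383, 1.7 and 0.512%. Of the HC genes among the falls, Mup11, a major urinary protein, was at 1067, 46.8, 0 and 5.03 CPM in neutrophils and 6070, 530, 9.13 and 43.4 CPM in HC-rich barcodes. In DKO, 63.1% of Mup20 UMIs lay in 1 cell. KC markers summed to 1666, 587, 829 and 402 CPM (10 of 10 with a UMI, Slc40a1 highest), and 60.8% of the WT sum was in 1 cell. Monocyte markers summed to 433, 760, 287 and 367 CPM (11 of 11, Ctss highest) and dendritic cell markers to 635, 1753, 0 and 1273 CPM (9 of 10, Cd74 highest), with 83.1% of the YAPKO Cd74 UMIs in 3 cells. Stellate cell markers summed to 619, 12.9, 0 and 10.1 CPM (8 of 8, Dcn highest), with 95.1% of the WT Dcn UMIs in 1 cell.

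Other marker lists were low. B cell markers summed to 206, 165, 127 and 141 CPM (8 of 8, Ighm highest), T and NK cell markers to 38.7, 117, 0 and 15.1 CPM (11 of 11, Cd3g highest), and the EC genes of the rule to 101, 53.9, 127 and 85.5 CPM (9 of 9, Dnase1l3 highest). Further EC markers summed to 86.7, 109, 63.7 and 60.4 CPM (10 of 11, Fcgr2b highest) and BEC markers to 37.1, 45.7, 0 and 45.3 CPM (4 of 6, Spp1 highest). Platelet markers were at 49.5, 17.6, 0 and 0 CPM (5 of 6, Pf4 highest), erythroid markers at 12.4, 4.68, 0 and 5.03 CPM (3 of 7, Hba-a1 highest) and eosinophil markers at 18.6, 35.1, 0 and 5.03 CPM (3 of 8, Siglecf highest, with Prg2 and Epx at 0). All 7 basophil and mast cell markers were at 0 UMIs. The part of this RNA in the ratios between libraries was examined with the HC genes and the settings on other-type RNA given above, and not beyond them.

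DKO and YAPKO neutrophils differed in 70 of 1261 genes (5.55%), 25 higher (1.98%) and 45 lower (3.57%) in DKO, around a median of 0.103. Scaled by it, 14 were higher and 50 lower (21.9% higher, against 35.7% unscaled). Selection on Retnlg, Csf3r and Cxcr2 turned this to 107 higher and 47 lower (69.5%). The granule genes of the 13 YAPKO cells led the falls, with a secondary granule median of -1.45 (7 of 11 lower, against 6.24% of all genes), against 0.16 over all genes. Slpi fell as well (-3.19), after H1f4, the HC gene Mup17 and Trim12a. Higher in DKO were Bst2 (log2 ratio 1.98), Ccl4 (1.78), Ccl3 (1.35), G0s2 (1.16) and Egr1 (1.07), whereas Cxcl2 was alike in both (0.22). The metallothionein Mt1, which binds zinc and copper, was at 43.3, 133, 0 and 15.1 CPM. It is an HC gene by the factor above, its TAZKO limit is 95.6 CPM, and its YAPKO to WT ratio is -0.90 with the 8 WT cells as the base.

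The 16 TAZKO neutrophils give values with wide intervals, and 1 UMI stands for more CPM there than in any other library. They held Csf3r, Cxcr2 and Il1b at the levels given above, and Slpi in 15 of 16 cells. Cxcl2 and Cxcl3 had 0 UMIs, Ccl4 had 1 and Ccl3 had 3. With 1 UMI added to each count, the median log2 ratio of all 3266 genes with at least 20 UMIs in TAZKO to WT was 0.54. The added UMI alone is worth 31.9 CPM in TAZKO and raises genes with few UMIs most. That median is therefore not a no-change value for lists of abundant genes. List medians were -0.64 for inflammatory genes (4 of 9 members lower, beside 4.81% of all genes) and -0.88 for secondary granules. They were -0.56 for the defining markers, of which S100a8 and S100a9 chose the cells, 0.66 for the gelatinase list and 0.43 for chemoattractant receptors. The sums of these lists, in which 1 UMI weighs little, had log2 ratios of -0.35, -0.96, -0.67, 0.66 and 0.46.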

How the data were processed

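The authors aligned the reads of 4 libraries, 1 mouse each, to the mouse genome (mm10) and deposited gene by barcode tables of UMI counts; Cell Ranger is given as version 6.0.1 in the submitters' processing notes and as 4.0.0 in the matrix headers. Counts were used as deposited. UMIs of the neutrophils were summed per library and scaled to CPM (per 1000000 of all their UMIs). Levels have exact Poisson intervals, log2 ratios exact conditional binomial intervals and shares Clopper-Pearson intervals, all at 95%. Genes holding 100 or more UMIs over the neutrophils of both libraries compared were counted when their CPM ratio, after 1 UMI was added on each side, reached 2; lists were described by their members with at least 20 UMIs. No test between genotypes was made, since each has 1 library. B cells, KCs and monocytes were kept barcodes selected on their own marker lists. For shares of cells, each cell was thinned at random without replacement to 1000 UMIs, and no neutrophil was left out. No doublet caller was run. Gene identifiers were matched to GENCODE M21 (55141 of 55488), and promoter sequences came from RefSeq on GRCm38.p6.

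Genes were named by rule: the 15 most abundant genes, the 15 with the highest lowest-of-4-libraries ratio to other cells, the 10 with the largest ratio in each direction of the 3 comparisons without markers of other cell types, and of each of 37 gene lists up to 4 members with the most UMIs and the largest ratios. Ly6g, Mki67, Elane, Xist, Klf6, Clec4e, Epx and Apoe fall outside this rule and were named after their values were seen. The members and the lists were chosen with earlier results of these data known. Analyses used Python 3.11.15 with numpy 2.4.6, pandas 2.3.3, scipy 1.17.1 and matplotlib 3.10.9. The code for intervals and counts was run on simulated independent counts. Those lack the clustering of UMIs in cells, so they do not test the intervals for that.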

Additional observations from a re-analysis of the deposited data

How the results depend on the processing

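No replicate can be left out, since each genotype has 1 library. Log2 ratios of the named genes took 9467 values under the alternative settings, of which 8068 lay within the counting interval of the main value, 1352 outside it and 47 turned the sign of a ratio past 2; 773 in all changed sign. Of 1015 list medians, 902 stayed within 0.25 of the main value, 108 moved and 5 turned the sign of a median past a ratio of 2, while 123 in all changed sign. Of 1465 list sums 1029 stayed, 422 moved and 14 turned the sign of a sum past that ratio, while 162 in all changed sign. Thinned to 500 UMIs, 65 of 124 shares of cells stayed within the interval and 59 moved. Taking the median as the main value of a list, the tolerance of 0.25, and sums alone for markers of other cell types were settled after the values were seen. So were the settings that leave out the granule cells, use 10% for HC markers, leave out HC genes, or take CT010467.1, Mir6236 and HC markers from the totals. Medians, shares and counts that moved, and ratios past 2 that turned sign, follow; except where the construction of a setting shows it, the cause was not tested. The depth of TAZKO, 31375 UMIs in 16 cells, limits every value there, and the 8 WT cells left by a limit of 1% on other-type markers limit that setting. A limit of 2.5% for S100a8 and S100a9 gave a share of neutrophils of 5.37% in YAPKO and 1.37% in DKO and gene counts of 92 higher in YAPKO to WT. In YAPKO to WT it gave list medians of primary granules 5.11, inflammatory genes 0.38 and dividing cells 3.34. For DKO to WT came list medians of Fc receptors 0.21 and sex-linked genes -0.31. DKO to YAPKO then had list medians of primary granules -3.60, dividing cells -2.80 and sex-linked genes -0.41, a list sum of T or NK cell markers 0.24. Raising that limit to 10% gave a share of neutrophils of 2.78% in WT, 3.24% in YAPKO, 0.0579% in TAZKO and 0.82% in DKO and gene counts of 21 higher in DKO to WT. For YAPKO to WT came list medians of primary granules 4.35, secondary granules 3.02, inflammatory genes 0.46 and survival 0.84, genes with reversed ratios of C1qb 0.94 and C1qc 0.83. DKO to WT then had list medians of survival 0.14, transcription factors 0.54 and lipid mediators 0.12, a list sum of dendritic cell markers -1.47, a reversed ratio of H2-Ab1 -1.27. In DKO to YAPKO it gave list medians of secondary granules -1.84, IL-1 and NF-kB feedback 0.10, lipid mediators 0.46 and stress genes 0.50, a reversed ratio of Bst2 -2.04. Dropping the EC limit gave, in DKO to YAPKO, list medians of lipid mediators -0.26. Keeping barcodes from 200 detected genes on gave a share of neutrophils of 2.01% in WT. Reading the limits of 500 and 6000 as UMIs, which leaves out the granule cells by construction as each held over 6000, gave a share of neutrophils of 2.45% in WT, 8.34% in YAPKO and 1.96% in DKO and gene counts of 8 higher in DKO to YAPKO. For YAPKO to WT came list medians of secondary granules 0.07, Fc receptors 0.44, pattern recognition 0.49, survival 0.84, interferon genes 0.09, transcription factors 0.25, dividing cells 0.26 and S100 family -0.07, a list sum of secondary granules -0.45, genes with reversed ratios of Camp -1.42, Cd177 -0.10, Chil3 -3.10 and Ly6a2 -1.56. DKO to WT then had list medians of lipid mediators 0.00 and dividing cells -0.06. In DKO to YAPKO it gave list medians of secondary granules 0.35, inflammatory genes 0.02, tissue-adapted genes -0.34 and dividing cells -0.04, list sums of primary granules 1.51 and secondary granules 0.21, genes with reversed ratios of Cd177 0.73, Cybb 1.30, Lcn2 0.08 and Ly6a2 2.64. Selection on at least 2 of Retnlg, Csf3r and Cxcr2 gave a share of neutrophils of 4.18% in WT, 5.85% in YAPKO, 0.533% in TAZKO and 2.03% in DKO and gene counts of 109 higher in DKO to WT and 107 higher in DKO to YAPKO. YAPKO to WT then had list medians of other markers 0.12, primary granules 2.28, secondary granules 1.62, Fc receptors 0.24 and dividing cells 2.01, a list sum of KC markers 0.36, genes with reversed ratios of Bst2 0.08, C1qb 0.68, C1qc 0.47 and Cd5l 0.04. In DKO to WT it gave list medians of defining markers -0.17, other markers -0.28, secondary granules -0.14, gelatinase granules -0.17, pattern recognition -0.12, interferon genes -0.22 and dividing cells -0.05, a list sum of HC markers 0.01, genes with reversed ratios of Apoa2 0.26 and Apoc1 0.17. For DKO to YAPKO came list medians of defining markers -0.11, other markers -0.30, primary granules -3.19, adhesion molecules -0.15, interferon genes -0.37, lipid mediators -0.15, dividing cells -0.99, Hippo genes -0.07 and sex-linked genes -0.44, a list sum of T or NK cell markers 0.43. Leaving out cells with at least 1% of HC, KC, B, or T and NK cell markers, which keeps 8 WT and 0 TAZKO cells, gave a share of neutrophils of 0.112% in WT, 3.57% in YAPKO and 0% in TAZKO and gene counts of 97 higher and 47 lower in YAPKO to WT and 6 lower in DKO to WT. In YAPKO to WT it gave list medians of defining markers -0.07, primary granules 1.92, secondary granules 1.84, gelatinase granules -0.30, chemoattractant receptors 0.00, Fc receptors 0.39, survival -0.37, interferon genes -0.71, lipid mediators -0.80, tissue-adapted genes -0.24, dividing cells 0.29, S100 family -0.05 and stress genes 0.27, genes with reversed ratios of C1qb 0.61, Cd177 -0.04, Cstb -0.63, Fgg 0.00, Ly6c2 -0.46, Mt1 -0.90 and Ncf1 -0.17. For DKO to WT came list medians of Fc receptors 0.87, NADPH oxidase 0.45, pattern recognition 0.65, inflammatory genes 0.76, survival -0.02, interferon genes -0.98, lipid mediators 0.37, tissue-adapted genes -0.56 and stress genes 0.05, genes with reversed ratios of Ccl3 -0.08, Cstb -0.70, Fgg 0.91, Ncf1 -0.39, Ptgs2 -0.11, Socs3 2.17 and Tmbim4 -0.01. DKO to YAPKO then had list medians of secondary granules -1.99, pattern recognition 0.27 and interferon genes -0.36. The same with 10% for HC markers gave, in YAPKO to WT, list medians of primary granules 4.30 and secondary granules 2.80, genes with reversed ratios of C1qb 1.14 and C1qc 1.75. For DKO to WT came list medians of secondary granules -0.02. Leaving out the 13 granule cells gave gene counts of 12 higher in DKO to YAPKO. In YAPKO to WT it gave list medians of secondary granules -0.20, pattern recognition 0.48, interferon genes 0.11, transcription factors 0.25 and dividing cells -0.13, list sums of primary granules -0.33, secondary granules -0.36 and dendritic cell markers -0.74, genes with reversed ratios of Camp -1.38, Cd177 -0.33, Cd74 -0.67, Chil3 -3.06, Cybb -0.56, H2-Aa -1.15, H2-Ab1 -0.54, H2-Eb1 -0.63 and Ly6a2 -1.52. For DKO to YAPKO came list medians of secondary granules 0.27, chemoattractant receptors -0.11, adhesion molecules -0.12, pattern recognition -0.25, inflammatory genes 0.05, IL-1 and NF-kB feedback -0.41 and dividing cells 0.39, list sums of primary granules 1.44, secondary granules 0.10 and monocyte markers 0.08, genes with reversed ratios of Cd177 1.03, Cybb 1.33, H2-Eb1 0.97 and Ly6a2 2.57. Totals without CT010467.1, Mir6236 and HC markers gave gene counts of 18 higher in DKO to WT. Scaling by the median log2 ratio gave gene counts of 17 higher in DKO to WT and 14 higher in DKO to YAPKO. The mean over cells of the CPM in each cell gave gene counts of 15 higher in DKO to YAPKO. YAPKO to WT then had list medians of primary granules 2.71, secondary granules 1.77, Fc receptors 0.34, survival 0.73 and dividing cells 0.73. In DKO to YAPKO it gave list medians of primary granules -0.52, secondary granules -0.17, interferon genes -0.44 and dividing cells -0.57. Taking all list members with a UMI gave, in YAPKO to WT, list medians of primary granules 1.73 and dividing cells 2.03. DKO to WT then had list medians of secondary granules -0.30, Fc receptors 0.31, survival 1.03 and Hippo genes -0.30. In DKO to YAPKO it gave list medians of primary granules -0.36, lipid mediators -0.48 and dividing cells -1.89. A minimum of 50 UMIs per gene gave gene counts of 125 higher and 123 lower in YAPKO to WT, 87 higher and 105 lower in DKO to WT and 93 higher and 93 lower in DKO to YAPKO. A minimum of 200 UMIs per gene gave gene counts of 31 higher and 41 lower in YAPKO to WT, 17 higher and 36 lower in DKO to WT and 12 higher and 19 lower in DKO to YAPKO. Leaving out HC genes gave gene counts of 30 lower in YAPKO to WT and 33 lower in DKO to WT.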
